A study of Drosophila melanogaster with 12 samples.

Results

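The subunits of the vacuolar ATPase (V-ATPase) were the genes whose deposited name begins with Vha, each represented by its transcript with the highest total count over the 12 libraries. The rule found 20 genes among the 14161 genes of the deposited autosomal and X-linked tables, and these 20 genes had 45 of the 22738 listed transcripts. All 20 passed the filter on low counts and were among the 13060 genes tested. They encode 14 kinds of subunit. By role, 9 members belong to the cytosolic V1 sector, 10 belong to the membrane Vo sector, and VhaM8.9 is an accessory protein. By position, 8 members lie on chromosome 2, 11 lie on chromosome 3 and 1, VhaAC39, is X-linked.

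RNA-seq was done on whole adult Drosophila melanogaster in 4 groups of 3 libraries, described in the labels as biological replicates. Control females and control males carried the genotype y w; +/+; TM3/+, where TM3 is a balancer for chromosome 3. MSL2 females were y w; (w+) H83M2-6I/+; +/+, so they carried a P-element msl2 transgene with a mini-white marker and no TM3. MSL2 is the protein subunit that limits assembly of the male X-chromosome dosage compensation complex, and females normally lack it. In H83M2 the Hsp83 promoter, which is active in most tissues, drives msl-2, so the transgene was not restricted to a tissue. The y w background was shared by the 3 groups with a stated genotype. MSL2 males were labelled with the same transgene, and neither their full genotype nor the age of the flies was known here. The transgene and the absence of TM3 cannot be told apart in females, which matters most for the 11 members on chromosome 3. Whether MSL2 males carried TM3 was not known, so the same limit may hold for males and for the difference between the transgene effects.

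The V-ATPase is a rotary proton pump. ATP hydrolysis by the A and B subunits of V1 turns a central stalk of D and F subunits, which turns a ring of c subunits in Vo, and protons cross between that ring and subunit a. The enzyme acidifies lysosomes, endosomes and synaptic vesicles in most cells, and in insects the same pump at the apical membrane of Malpighian tubules and parts of the gut energises ion transport. In Drosophila several subunits are encoded by more than 1 gene, and many of the additional copies are known for testis-enriched expression.

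Total counts were 27729411 to 79622278 per library, and 3 counts corresponded to 0.0388 to 0.107 CPM. CPM is the count divided by the library total after scaling with TMM factors, times 1e6. Differences are log2 fold changes ± SE from 1 edgeR quasi-likelihood fit of all 12 libraries, with p-values adjusted over all 13060 genes and called below 0.05. Log CPM profiles of replicates correlated at 0.9817 to 0.9966 across genes, and no pair of libraries agreed within counting noise. Sex-specific tissues set the libraries apart as their labels say. The summed level of 15 testis markers was 18.0 to 27.5 CPM in control females against 4089 to 4668 CPM in control males. That of 15 ovary, egg and yolk protein markers was 17150 to 19640 CPM in control females against 1212 to 1327 CPM in control males. Most of the control female sum came from the yolk protein genes Yp1, Yp2 and Yp3, with means of 6447, 5740 and 2992 CPM. It therefore says little about the other markers. Most of the ovary sum of control males was exu, at 877 ± 58.2 CPM against 166 ± 15.4 CPM in control females (SD, n = 3). This was the 1 ovary marker called higher in control males, and 13 were called lower, beside 34.4% and 37.6% of all genes. MSL2 females had an ovary sum of 9636 to 16230 CPM, below every control female library, with replicate 1 lowest. Of the 15 markers 1 was called lower than in control females and 14 were not called, beside 3.67% of all genes called lower. The largest absolute falls in mean CPM from control to MSL2 females were those of Yp1 (6447 to 4384) and Yp2 (5740 to 3644). Relative to level, the largest falls were those of Vm26Aa (858 to 313), Cp36 (226 to 58.1), Cp38 (379 to 117) and psd (67.3 to 21.9). Their spread was wide, with Cp36 at 0.431 to 92.8 CPM in the MSL2 female libraries. Only the mean of grk rose (42.9 to 46.3). No marker was at 0 in any group. In whole flies, fewer cells of a type and less RNA per cell cannot be told apart.

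**Figure D1:**
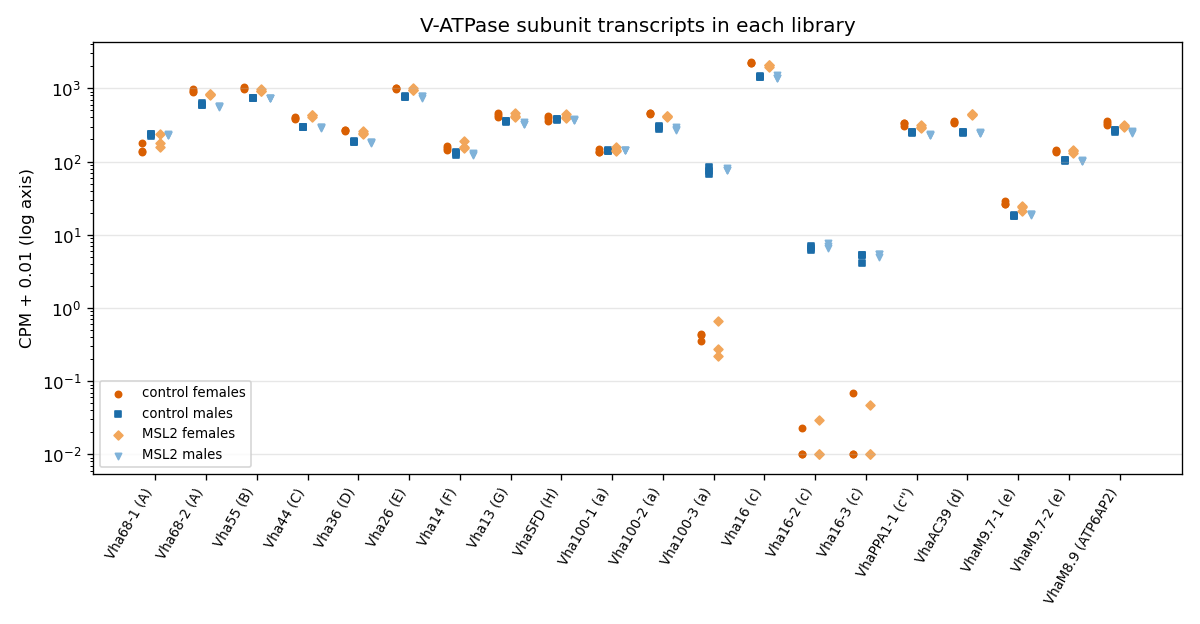
Level of each of the 20 subunit genes in each of the 12 libraries, in CPM plus 0.01 on a log axis, with the subunit in brackets and 1 point per library. For most genes the orange female points lie slightly above the blue male points, whereas Vha100-3, Vha16-2 and Vha16-3 are near the bottom of the axis in females and at 4.13 to 83.2 CPM in males.

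Taken as a sum over the 20 genes, V-ATPase transcripts were more abundant in females. The members summed to 8741 ± 253 CPM in control females against 6526 ± 98.1 CPM in control males (SD, n = 3). They summed to 8408 ± 204 CPM in MSL2 females against 6418 ± 159 CPM in MSL2 males (SD, n = 3). The sum did not overlap between the sexes, and within each sex the transgenic and control ranges overlapped. For levels per kilobase, the CPM of the transcript that represents a gene was divided by the length of all exons of that gene. The transcript and this length need not match, so ranks and ratios between genes are approximate. On this scale Vha16, the main proteolipid of the proton-carrying c ring, was the most abundant at 726 ± 15.1 CPM per kb in control females. Vha13 (subunit G of the peripheral stalks) followed at 461 ± 29.6 CPM per kb. Vha55 (B), Vha26 (E, peripheral stalks) and Vha68-2 (catalytic A) came next at 363 ± 9.89, 342 ± 8.18 and 337 ± 14.99 CPM per kb, and the last 2 did not differ beyond their SD.

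Control males were compared with control females first, as the sex difference without the transgene. Of the 20 members, 14 were lower in males, 4 were higher and 2 did not pass the test. Over all genes tested, 37.6% were called lower and 34.4% higher, so the share of members that were lower, but not the share that were higher, stands above that background. The median log2 fold change was -0.39 over the members and 0.01 over all genes. The log2 fold changes of the 14 that fell lay in a narrow range, from -0.25 (Vha14) to -0.64 (Vha16), and 13 of them were the only or the leading member gene of their subunit, VhaM9.7-1 being the exception. The 4 that rose were Vha68-1, Vha100-3, Vha16-2 and Vha16-3, all of which are additional copies of a subunit.

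In the V1 sector, the 2 genes for the catalytic subunit A moved in opposite directions. Vha68-2, the more abundant, was at 888, 970 and 933 CPM in the 3 control female libraries and at 593, 624 and 600 CPM in the control males. Every female library was above every male one, and the log2 fold change was -0.62 ± 0.07 (adjusted p = 5.02e-06). Vha68-1 was at 134, 139 and 178 CPM in control females against 235, 238 and 224 CPM in control males. Here every male library was the higher, with a log2 fold change of 0.63 ± 0.14 (adjusted p = 0.0021). Subunit A as a whole thus combined a fall of its main gene with a rise of the minor one.

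The nucleotide-binding partner of A, subunit B, is encoded by Vha55, which was at 981, 1035 and 1018 CPM in control females against 742, 726 and 738 CPM in control males (log2 fold change -0.46 ± 0.06, adjusted p = 4.02e-05). Vha36, subunit D of the rotating central stalk, was at 263, 268 and 271 CPM in females and 188, 182 and 185 CPM in males. Its groups were clear of each other and its log2 fold change was -0.53 ± 0.06 (adjusted p = 5.21e-06). Vha44, subunit C, which joins V1 to Vo and, in yeast and insects, leaves when the pump is disassembled, was at 381, 391 and 408 CPM in females and 299, 297 and 295 CPM in males (-0.41 ± 0.06, adjusted p = 1.01e-04). Vha44 overlaps Hmgs on the other strand, and reads of the pair could not be separated if counting ignored strand. Among the other V1 genes, Vha26 (E), Vha13 (G) and Vha14 (F, central stalk) fell by 0.38, 0.30 and 0.25 on the log2 scale. The Vha14 call was lost without control female replicate 3 (adjusted p = 0.095), without control male replicate 3 (adjusted p = 0.080) and with the least counted transcript of each gene (adjusted p = 0.14). VhaSFD, subunit H, which in yeast is required for activity and silences free V1, did not pass the test. It was at 361, 393 and 417 CPM in control females against 376, 383 and 371 CPM in control males, with a log2 fold change of -0.05 ± 0.07.

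In the Vo sector, Vha16 was at 2220, 2196 and 2286 CPM in control females against 1436, 1466 and 1406 CPM in control males. All female libraries were above all male libraries (log2 fold change -0.64 ± 0.07, adjusted p = 6.96e-06). VhaPPA1-1, the c'' proteolipid of the same ring, was at 308 to 339 CPM in females and 244 to 253 CPM in males (-0.40 ± 0.07). VhaAC39, subunit d, which caps the ring beneath the central stalk, was at 335, 357 and 351 CPM in females and 252, 257 and 242 CPM in males. Its log2 fold change of -0.47 ± 0.06 (adjusted p = 2.29e-05) lay within the range of the autosomal members that fell, and 60.05% of 2075 X-linked genes had a larger value. Of the 2 genes for the small subunit e, VhaM9.7-2 was at 135 to 146 CPM in females and 102 to 106 CPM in males (-0.43 ± 0.06), and VhaM9.7-1 was at 26.1 to 28.6 CPM in females and 17.8 to 18.7 CPM in males (-0.57 ± 0.07). VhaM9.7-1 shares sequence positions with Teh2 on the same strand and CG18675 on the other, so its counts are uncertain. The accessory gene VhaM8.9, the fly homologue of ATP6AP2, was at 319 to 352 CPM in females and 253 to 270 CPM in males (-0.35 ± 0.07).

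Subunit a, which anchors the stator and holds the proton half-channels, has 3 member genes, and each had its own pattern by sex. Vha100-2 was at 443, 461 and 466 CPM in control females against 292, 310 and 282 CPM in control males (-0.63 ± 0.07, adjusted p = 5.73e-06). Vha100-1, the form known from synaptic vesicles of neurons, was at 135, 136 and 148 CPM in females and 137, 140 and 145 CPM in males. The 2 ranges overlapped and the log2 fold change was 0.01 ± 0.07. Vha100-3 was at 0.438, 0.424 and 0.349 CPM in females, from 15, 24 and 27 counts, and at 83.2, 67.0 and 75.4 CPM in males. The ratio of male to female counts, scaled for library size, was 193 (95% interval 152 to 250, counting error only). Vha100-2, Vha100-1 and Vha100-3 each overlap a gene on the other strand, Vti1b, Alg13 and sano respectively.

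The 2 additional c-ring genes were almost exclusively counted in males. Vha16-2 had 0, 0 and 1 counts in control females and 372, 270 and 307 counts in control males, which is 6.27 to 6.93 CPM. The ratio was 1109, with a 95% counting interval of 199 to 43850, the width of which reflects the single female count. Vha16-3, its neighbour on the chromosome, had 2, 0 and 0 counts in females and 279, 178 and 246 counts in males, a ratio of 411 (interval 113 to 3398). Both genes passed the filter on low counts through the male libraries alone, so a difference between the sexes was built into their being tested. Testis markers and accessory gland markers differed in the same direction, with accessory gland sums over 9 genes of 8.58 to 17.2 CPM in control females against 2777 to 4082 CPM in control males. The part of these tissues in the male counts of Vha100-3, Vha16-2 and Vha16-3 was not tested.

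**Figure D2:**
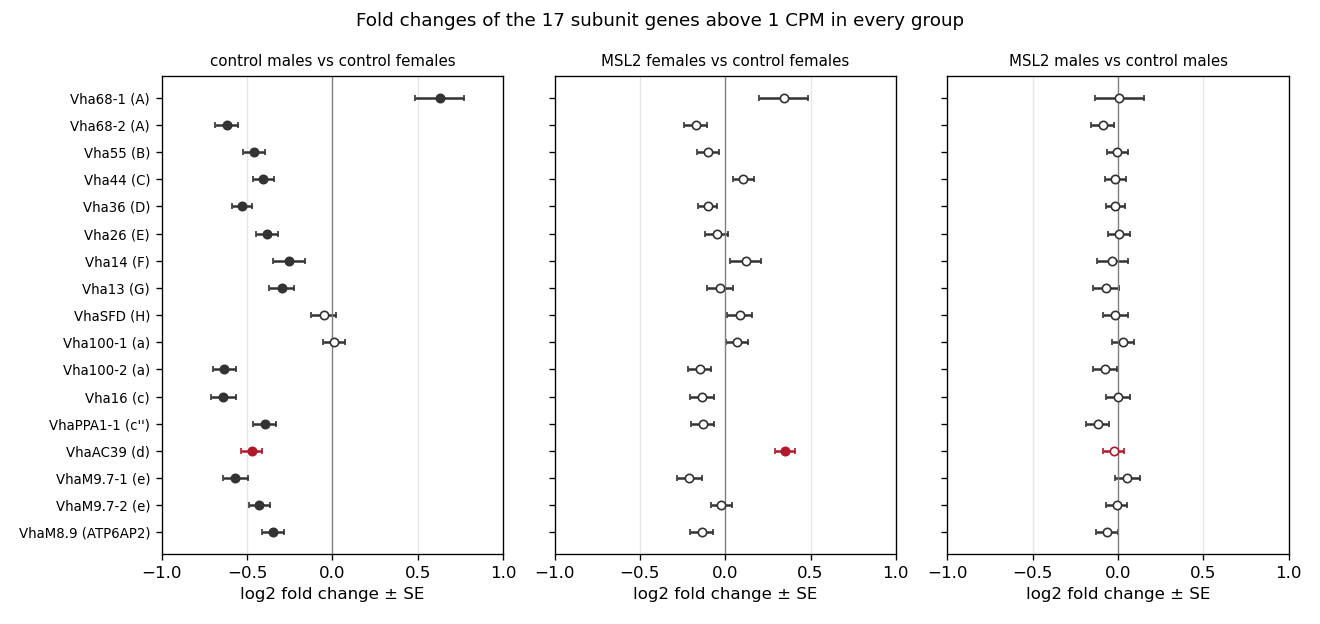
Log2 fold change ± SE of the 17 subunit genes above 1 CPM in every group, for 3 comparisons, with filled points called by edgeR at an adjusted p under 0.05 and the X-linked VhaAC39 in red. In control males 14 of the 17 lie below 0 as filled points. In MSL2 females VhaAC39 alone is filled, at 0.35, and in MSL2 males none is filled.

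Summed levels of markers of tissues rich in V-ATPase also differed between control sexes. Over all genes, 37.6% were called lower and 34.4% higher in control males. The summed level of 5 Malpighian tubule markers was 484 to 552 CPM in control females against 427 to 453 CPM in control males. Of the 5, 2 were called lower in males, close to that background, and 3 were not called. Their median log2 fold change was -0.06. The sum of 4 midgut markers was 1631 to 2523 CPM in control females against 791 to 1528 CPM in control males, with 2 of the 4 called lower in males and 1, lab, called higher (0.45 ± 0.12). The sum of 8 neuronal markers moved the other way, from 763 to 917 CPM in control females to 1001 to 1114 CPM in control males, and 5 of the 8 were called higher in males. The neuronal sum was 823 to 1073 CPM in MSL2 females. The part of these tissues in the subunit differences was not tested.

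How each subunit was divided among its member genes was described by the share of CPM per kb that did not come from the leading gene. The possible mismatch between transcript and exon length given above holds for these shares too, so their sizes are approximate. For subunit A that share, all from Vha68-1, was 14.2% ± 1.94 in control females and 28.3% ± 0.63 in control males (SD, n = 3). For subunit a, the share of Vha100-1 and Vha100-3 together was 23.1% ± 0.62 in control females and 42.8% ± 2.01 in control males. For subunit c, the share outside Vha16 was 0.0052% in control females and 3.84% ± 0.34 in control males. For subunit e, the share of VhaM9.7-1 was 21.7% ± 1.43 in control females and 20.1% ± 0.57 in control males, with overlapping groups. The A, a and c shares did not overlap between control sexes. For each of these 3 the p of an exact permutation test (two-sided) was 0.1, the smallest that 3 libraries against 3 allow, and 0.167 after adjustment over 20 tests, so that this design cannot reach 0.05.

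MSL2 females were compared with control females to read the effect of the transgene in females. Of the 20 members 1 was called higher, VhaAC39, and none was called lower, against 6.62% of all genes called higher and 3.67% called lower. The edgeR count was thus close to the background. At an unadjusted p under 0.05 there were 4 of 20 members, beside 30% of all genes. DESeq2 called 1 member higher, VhaAC39, beside 8.36% of all genes, and 6 lower (Vha68-2, Vha36, Vha100-2, Vha16, VhaPPA1-1 and VhaM8.9, at -0.14 to -0.22), beside 6.99%. The count of lower members by DESeq2 was above that background, and the count by edgeR was not. The median log2 fold change was -0.03 over the members and -0.01 over all genes. The balance of all called genes depends on the scaling, with 865 higher and 479 lower under TMM over all genes and 1078 higher and 362 lower under TMM over autosomal genes.

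VhaAC39 was at 335, 357 and 351 CPM in control females and at 449, 434 and 446 CPM in MSL2 females. Every MSL2 female library was above every control library, and the log2 fold change was 0.35 ± 0.06 (adjusted p = 0.0053). It is the only member on the X chromosome. Of the 2075 X-linked genes tested, 22% were called higher in MSL2 females, their median log2 fold change was 0.19, and 30.2% had a larger value than VhaAC39. The value for VhaAC39 was thus within the ordinary range of X-linked genes. The call was lost when the fit used these 2 groups alone (0.35, adjusted p = 0.099), and it held with each library left out in turn (0.32 to 0.39, highest adjusted p 0.031).

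The 16 autosomal members above 1 CPM in every group ranged from -0.21 to 0.34 and none was called by edgeR. Those on chromosome 2 had a median of 0.09 over 7 genes, and those on chromosome 3 a median of -0.10 over 9 genes, beside -0.04 and -0.05 over all tested genes of those chromosomes. In 7 of the 20 members (Vha68-2, Vha55, Vha36, Vha100-2, Vha16, VhaM9.7-1 and VhaM8.9) every MSL2 female library was below every control female library, as was the case for 13.5% of all genes, and 12 members overlapped. Vha16 was at 2092, 1955 and 2059 CPM in MSL2 females against 2196 to 2286 CPM in control females, a log2 fold change of -0.13 ± 0.07 (adjusted p = 0.23). Vha68-2 was at 825, 803 and 846 CPM against 888 to 970 CPM (-0.17 ± 0.07, adjusted p = 0.11). These differences were small and separated the groups without passing the test. Vha68-1 was at 235, 180 and 157 CPM in MSL2 females against 134 to 178 CPM (0.34 ± 0.14, adjusted p = 0.14), and its groups overlapped. Without MSL2 female replicate 3 Vha68-1 was called (0.47, adjusted p = 0.038). With each library left out in turn its value ran from 0.16 to 0.49, with adjusted p-values up to 0.42.

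The male-limited members stayed near 0 in MSL2 females. Vha100-3 had 14, 6 and 33 counts, Vha16-2 had 0, 0 and 1 counts and Vha16-3 had 2, 0 and 0 counts in the 3 MSL2 female libraries. The ratio of control female to MSL2 female counts of Vha100-3 was 0.982 (95% interval 0.674 to 1.44, counting error only). It was 1.60 (interval 0.957 to 2.78) without MSL2 female replicate 3, which held 33 of the counts. The counts of the other 2 genes were too few for a difference between the female groups to be detectable.

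**Figure D3:**
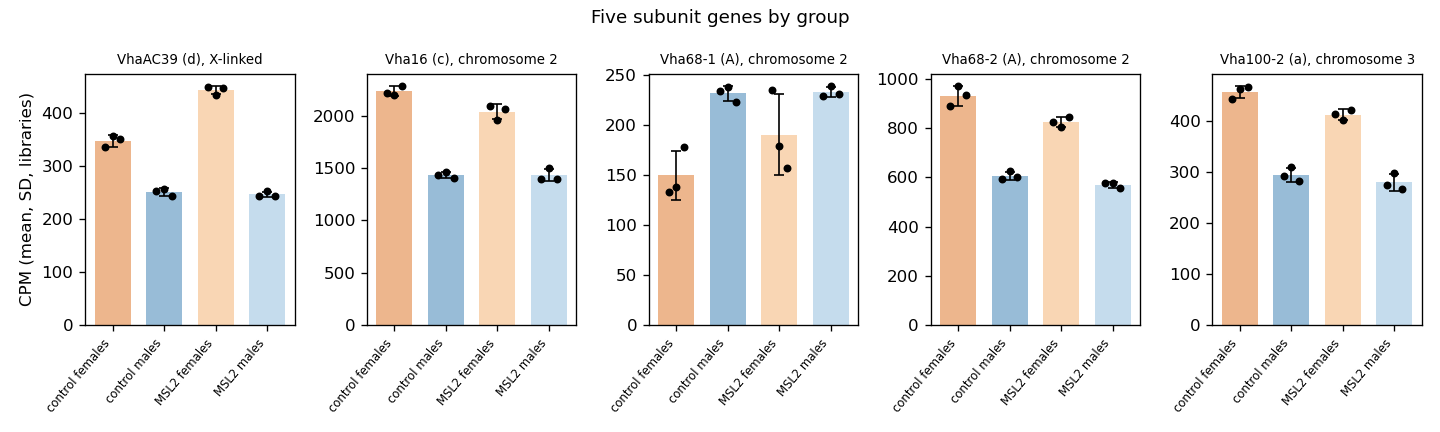
CPM of 5 subunit genes in the 4 groups, with bars for the mean, error bars for the SD and points for the 3 libraries of a group. VhaAC39 is the gene with its highest level in MSL2 females, at 434 to 449 CPM, while Vha16, Vha68-2 and Vha100-2 are highest in control females.

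Set against control males, MSL2 females had the female pattern of the V-ATPase. Of the 20 members 14 were higher, 3 were lower and 3 did not pass the test, beside 38.6% of all genes called higher and 31.3% called lower. The median log2 fold change was 0.35 over the members and 0.09 over all genes. VhaAC39 had the largest positive value, 0.82 ± 0.06 (adjusted p = 1.83e-07), from 252, 257 and 242 CPM in control males to 449, 434 and 446 CPM in MSL2 females. Across X-linked genes the median was 0.54, and 34.9% had a larger value. The other 13 that were higher ranged from 0.21 (VhaM8.9) to 0.51 (Vha44). Vha16 was higher by 0.50 ± 0.07 and Vha68-2 by 0.45 ± 0.07. The 3 that were lower were the male-limited genes Vha100-3, Vha16-2 and Vha16-3. As in the control comparison, the calls of Vha16-2 and Vha16-3 were built into their passing the filter through the male libraries alone. Control males had 190 times the Vha100-3 count of MSL2 females (95% counting interval 145 to 253), or 309 times (199.8 to 506) without MSL2 female replicate 3. Vha68-1 (-0.28 ± 0.14, adjusted p = 0.099), VhaSFD (0.14 ± 0.07, adjusted p = 0.13) and Vha100-1 (0.06 ± 0.07, adjusted p = 0.45) were not called. The Vha68-1 result depended on the tool and the scaling, since it was called lower with DESeq2 (-0.38, adjusted p = 0.0049), with median-of-ratios size factors (-0.38, adjusted p = 0.013) and without MSL2 female replicate 1 (-0.47, adjusted p = 0.0040). VhaSFD was called higher under autosomal scaling (0.22, adjusted p = 0.021). When only these 2 groups were fitted, 12 members were called in place of 17. The VhaM8.9 call was also lost with median-of-ratios size factors (0.12, adjusted p = 0.10), and the Vha13 and VhaM8.9 calls with the least counted transcripts (adjusted p = 0.052 and 0.11).

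In males the transgene was not accompanied by a called change in any member. In the comparison of MSL2 males with control males, edgeR called 0 of 20 members, beside 0.812% of all genes in either direction, and DESeq2 called 0, beside 2.03%. Of the 106 genes called by edgeR, 101 lay on chromosome 3, which held 5670 of the 13060 genes tested. A difference in TM3 between the male groups was not tested. The unadjusted p was under 0.05 for 0 members, beside 7.89% of all genes. The log2 fold changes ran from -0.12 (VhaPPA1-1) to 0.12 (Vha16-2), with a median of -0.01. VhaAC39 was at 244, 252 and 243 CPM in MSL2 males and 252, 257 and 242 CPM in control males (-0.03 ± 0.06). In 2 members, Vha68-2 and VhaPPA1-1, all MSL2 male libraries were below all control male libraries, beside 12.1% of all genes, so this count was close to the background. The sums of testis markers, 4694 to 5053 CPM in MSL2 males, were just clear of the 4089 to 4668 CPM of control males. Of the 15 testis markers 0 were called, beside the same 0.812% of all genes, and their median log2 fold change was 0.08.

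MSL2 males against MSL2 females gave the sex difference within transgenic flies, with 3 members higher and 14 lower, beside 31.5% and 38.5% of all genes. The 3 higher were Vha100-3, Vha16-2 and Vha16-3. Because Vha16-2 and Vha16-3 passed the filter through the male libraries alone, their calls were built into their being tested. VhaAC39 fell by 0.85 ± 0.06 on the log2 scale (adjusted p = 1.35e-07), the largest fall of a member, beside a fall of 0.47 between control males and control females. The log2 fold change of Vha68-1 was 0.29 ± 0.14 and was not called (adjusted p = 0.093), beside 0.63 in the control comparison. It was called higher in MSL2 males with DESeq2 (0.39, adjusted p = 0.0040), with median-of-ratios size factors (0.39, adjusted p = 0.011), with the least counted transcripts (0.36, adjusted p = 0.047) and without MSL2 female replicate 1 (0.47, adjusted p = 0.0037). VhaSFD (-0.15 ± 0.07, adjusted p = 0.090) was called lower under autosomal scaling (-0.24, adjusted p = 0.014). The VhaM9.7-1 call (-0.31 ± 0.07) was lost with DESeq2 (-0.21, adjusted p = 0.055) and with 2 other alternatives, and 13 members were called with these 2 groups fitted alone. The test of the difference between the transgene effects in females and in males called 0 of 20 members, beside 1.26% of all genes, and 2 had an unadjusted p under 0.05, beside 12.8%. These were VhaAC39 (0.38 ± 0.09, adjusted p = 0.069) and VhaM9.7-1 (-0.26 ± 0.10, adjusted p = 0.31). The VhaAC39 difference was called by DESeq2 (0.33, adjusted p = 0.0028) and under scaling to autosomal genes (0.42, adjusted p = 0.040).

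Further V-ATPase genes are listed in the tables under CG symbols, outside the rule, and 14 were found through their RefSeq names. Between control sexes 11 were higher in males and 3 were lower, so that all 14 passed the test, beside 34.4% and 37.6% of all genes. The call of CG8310 (0.37 ± 0.12, adjusted p = 0.018) was lost without control female replicate 1 or 2 (adjusted p = 0.072 and 0.051) and without control male replicate 1 (adjusted p = 0.12). For 7 of the 11 the control females had means under 1 CPM, and CG1076, CG9013, CG7026 and CG14909 reached the filter through the male libraries alone. CG5075 (RefSeq Vha68-3), another subunit A gene beside Vha68-1 and Vha68-2, was at 0.440 to 1.14 CPM in control females against 177 to 202 CPM in control males, a ratio of counts of 302 (95% counting interval 250 to 369). CG13167 (Vha36-2, subunit D) was at 0.230 to 0.467 CPM in females and 54.5 to 61.4 CPM in males, a ratio of 201 (interval 152 to 272). CG14909 (VhaM9.7-d, subunit e) was at 0.0388 to 0.0875 CPM in females and 15.1 to 16.98 CPM in males, a ratio of 306 (interval 161 to 670). The 3 that were lower in males were 2 subunit a genes, CG7678 (Vha100-4, -1.03 ± 0.14) and CG12602 (Vha100-5, -0.77 ± 0.12), and CG8029 (VhaAC45, an accessory protein, -0.34 ± 0.07).

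Counting these copies with the members, the share of subunit A outside Vha68-2 was 14.3% in control females and 42.8% in control males, and was 19.2% in MSL2 females and 45.1% in MSL2 males. For subunit D the share outside Vha36 was 4.68% in control females and 25.8% in control males. For subunit d the share outside VhaAC39 was 0.117% and 4.18%, and for subunit e the share outside VhaM9.7-2 was 27.7% and 45.8%. The divided subunits therefore belonged to both sectors. The summed level of the 14 copies was 631 ± 19.4 CPM in control females against 802 ± 30.1 CPM in control males (SD, n = 3), the opposite order to the 20 members. That order rested on CG5075, which gave 0.720 CPM of the female mean and 189 CPM of the male mean. CG8029, the most abundant copy, was lower in males, at 463 CPM in control females against 366 CPM in control males.

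**Figure D4:**
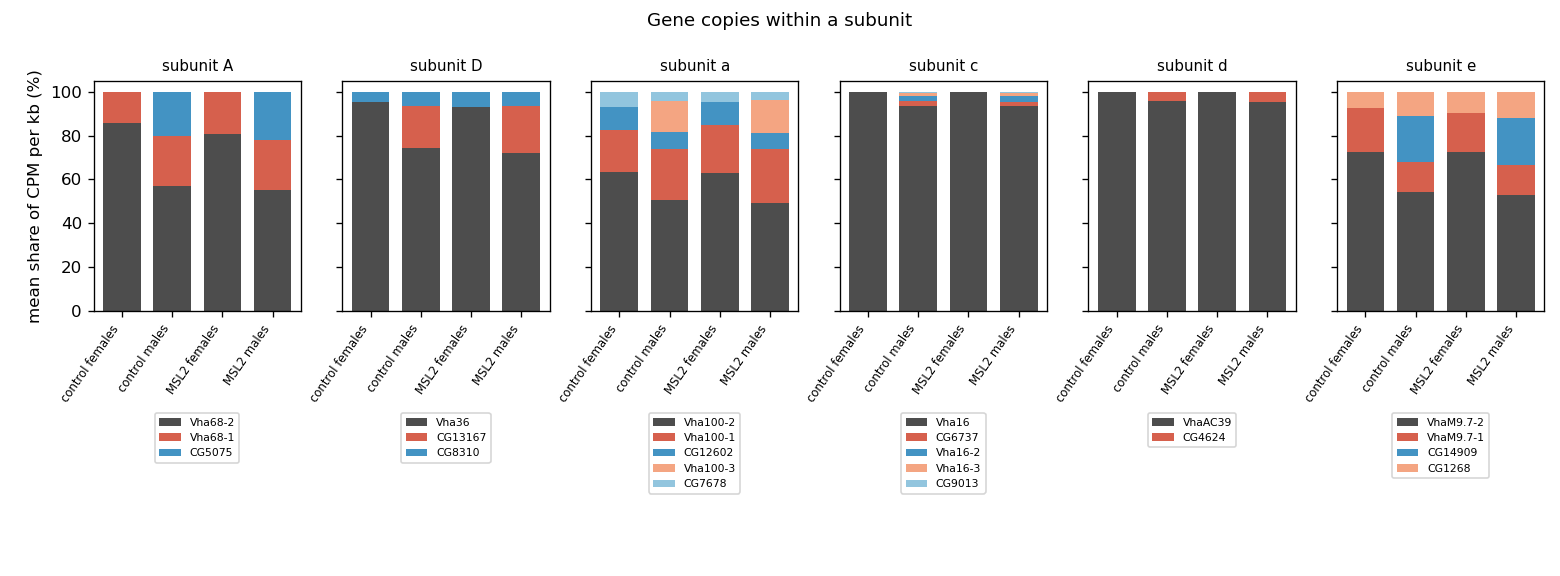
Mean share of each gene in the CPM per kb of its subunit, for 6 subunits and the 4 groups, with members and CG-named copies stacked to 100%. Genes outside the dark leading gene take a larger part in the 2 male groups, as in subunit A at 42.8% in control males and 14.3% in control females.

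In MSL2 females 3 of the 14 copies were called, beside 10.3% of all genes in either direction. CG8310 (Vha36-3), an X-linked subunit D gene, was at 13.95, 16.0 and 16.96 CPM in control females and 26.8, 22.4 and 20.4 CPM in MSL2 females (0.57 ± 0.12, adjusted p = 0.016). Its call was lost without control female replicate 1 (adjusted p = 0.069), without control female replicate 2 (adjusted p = 0.052) and when the 2 groups were fitted alone (adjusted p = 0.11). CG7678 was at 45.8, 42.1 and 41.4 CPM in control females and 24.98, 23.3 and 26.8 CPM in MSL2 females (-0.78 ± 0.14, adjusted p = 0.0070). CG7678 lies on chromosome 3 next to Vha100-2 and overlaps cona on the other strand. CG31030 (VhaAC45RP), also on chromosome 3, was called at 0.44 ± 0.13 (adjusted p = 0.0498) with overlapping groups. It lost its call under most alternatives, with adjusted p-values up to 0.22. For CG7678 and CG31030 the limit set by the absence of TM3 in MSL2 females applies. No copy was called between MSL2 males and control males, beside 0.812% of all genes, so this count was close to the background.

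Genes that build, regulate or work beside the pump were described from 3 lists. Of 10 genes for assembly and regulation, 9 were lower and 0 higher in control males than in control females, beside 37.6% and 34.4% of all genes. Examples were raptor, a partner of the Tor kinase that is recruited to lysosomes (-1.46 ± 0.10), Mitf, a transcription factor that controls V-ATPase and lysosomal genes (-1.11 ± 0.15), Tor itself (-0.75 ± 0.06) and RagA (-0.68 ± 0.06). The median of the 10 was -0.51, beside 0.01 over all genes. In MSL2 females 1 of the 10 was called (10.3% of all genes), Rbcn-3B (0.22 ± 0.06, adjusted p = 0.049), which is X-linked and belongs to the rabconnectin complex that promotes assembly of the pump.

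Of 29 lysosomal genes, 4 were higher and 6 lower in control males, with a median of -0.13. The 10 called were a smaller share than the 71.9% of all genes called in either direction. The 4 with the smallest p were car (-0.81 ± 0.09) and dor (-0.55 ± 0.07) of vesicle fusion at the lysosome, the sterol carrier Npc2a (-0.34 ± 0.05) and the hexosaminidase gene fdl (0.34 ± 0.05). In MSL2 females 3 were higher and 1 lower than in control females, beside 6.62% and 3.67% of all genes. The higher ones were Ppt1, a palmitoyl thioesterase (0.60 ± 0.12), the cathepsin B gene CG10992 (0.43 ± 0.09) and dor (0.32 ± 0.07), and all of them are X-linked. The lower one was the autosomal glucocerebrosidase gene CG31414 (-0.81 ± 0.12).

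Of 24 genes for epithelial ion transport, 4 were higher and 6 lower in control males, with a median of 0.07. The 10 called were again a smaller share than the 71.9% of all genes. They included the aquaporin gene CG7777 (-2.39 ± 0.09), the chloride channel gene Best1 (-0.68 ± 0.06) and the chloride transporter genes ClC-b (-0.60 ± 0.07) and ClC-c (-0.43 ± 0.06). In MSL2 females 3 were higher and 0 lower, beside the same 2 shares, namely CG31547 (0.49 ± 0.11), a sodium, potassium and chloride cotransporter gene, ClC-a (0.48 ± 0.11) and Best1 (0.26 ± 0.06). In MSL2 males against control males, and in the difference between the transgene effects, none of the 3 lists had a called gene. Over all genes 0.812% and 1.26% were called in these comparisons, so the lists were close to the background.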

How the data were processed

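Whole-fly RNA-seq libraries (4 groups of 3) were analysed. The submitters' processing notes name TopHat, HTSeq and the genome build dm3; tool versions, the counting mode, strand handling and the annotation used were not known here. The authors deposited raw read counts for each transcript. A second deposited column per library held the fraction of its own table's total and served only as a check. A total row without a gene name in each table was left out, and gene names turned into date serials were restored from identifiers. Arms, neighbours and RefSeq names came from a later assembly than dm3, and exonic lengths from the union of exons in the BDGP6 annotation, so no coordinates are given. No sequence table was used here, so the planned promoter motif count was not made.

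Counts were tested with edgeR 4.0.16 in R 4.3.3 (TMM, filterByExpr with minimum count 10, quasi-likelihood F test on 12 libraries, Benjamini-Hochberg, threshold 0.05), and the code was tested on simulated data. The SE was taken as the size of the log2 fold change over the root of its F value. The members and lists were chosen with earlier results of these data known. The class of members above 1 CPM was set after their values were seen. The copies under CG symbols were taken by RefSeq symbol; a hand list lacked CG31030 and wrongly held CG1746, a mitochondrial gene. In each comparison up to 10 called members by smallest p with a mean log2 CPM of at least 3, with all copies of their subunit, were described in full, and up to 4 called genes of each other list. The lists were assembly and regulation, lysosome, epithelial ion transport, and testis, ovary, accessory gland, Malpighian tubule, midgut and neuron markers. Alternatives were DESeq2 1.42.0, median-of-ratios size factors, TMM from autosomal genes, no filter, fits of 2 groups, a replicate block, the least counted transcript, raw count shares and each library left out.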

Additional observations from a re-analysis of the deposited data

How the results depend on the processing

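Between control sexes 17 or 18 members were called under every alternative run. In MSL2 females against control females the main count of 1 became 7 with DESeq2 and 0 with 2 groups fitted alone, and was 1 to 2 with each library left out, reaching 2 without MSL2 female replicate 3. For the difference between transgene effects the count of 0 became 1 with DESeq2 and with autosomal scaling. The c share outside Vha16 differed by -0.0006743 percentage points between MSL2 and control females, and by -0.003261 to 0.003036 with a library left out, including 0.001576 without MSL2 female replicate 2, from 3 counts in each group. Same-numbered libraries did not deviate together (5 of 18 pairs correlated above 0.1, range -0.556 to 0.598), and with the replicate block 1 member was called in MSL2 against control females and 18 between control sexes. Over all genes, MSL2 against control females gave 1344 calls, 2052 with DESeq2, 669 with the block, 156 with 2 groups and 543 to 2851 with a library left out. MSL2 males against control males gave 106 calls, 282 with DESeq2, 51 with the block, 287 with 2 groups and 41 to 229 with a library left out. The difference of effects gave 165, 421 with DESeq2 (72% higher, against 83.6%), 10 with the block and 23 to 250 with a library left out. The causes were not tested. Depth limits Vha16-2 and Vha16-3 in females.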
